A study of Rattus norvegicus with 20 samples.

Results

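The genes described here are 9 that liver biology places in pericentral hepatocytes, the cells around the central vein of the liver lobule. They are Avpr1a, Oat, Glul, Slc1a2, Gulo, Rgn, Cyp2e1, Axin2 and Tbx3. A probe set was taken where the array annotation gave it exactly 1 symbol and that symbol was on the list. This gave 16 of the 31042 probe sets tested. Every gene had at least 1 probe set, out of 14217 gene symbols in all, and no member was lost to a filter on brightness because none was applied.

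The data are log2 array intensities of left-lobe liver RNA from 20 male Harlan Sprague Dawley rats, with 1 array per rat. The treated rats received isodecyl diphenyl phosphate (IDDP), a flame-retardant plasticiser of the aryl phosphate class, in corn oil by gavage. The doses were 66, 132, 263.6, 527.1 and 1054.2 mg/kg body weight, with 3 rats at each. The molar doses ran from 0.169 mmol/kg, with steps at 0.338, 0.675 and 1.35, up to 2.7 mmol/kg. The 5 control rats received corn oil alone. All groups were dosed on 4 consecutive days and the liver was taken on day 5, so every rat shared the vehicle, sex, strain and time point. The labels give no age.

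The samples were whole liver tissue and carry no position within the lobule. In such bulk samples, fewer cells of a type and less RNA per cell cannot be told apart. All 9 hepatocyte markers examined, among them Alb, Ttr and Hnf4a, lay between the 98.5th and the 100.0th percentile of mean brightness over all probe sets. The 3' signal minus the 5' signal of the actin and GAPDH controls on the array, which grows as RNA degrades, was 1.68 ± 0.11 log2 at 1054.2 mg/kg (SD, n = 3) and 1.64 ± 0.27 in controls (SD, n = 5). It was highest in 132 mg/kg replicate 2 (3.25) and 263.6 mg/kg replicate 2 (2.47), so the members' changes at those doses are also given without these rats, after the counts by dose. The p-values measure the spread between rats, and all dose comparisons share the same 5 controls.

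Hepatocytes divide their work along the path of blood from the portal tract to the central vein. Around the central vein, Wnt ligands and R-spondins from endothelial cells activate beta-catenin, which binds DNA with the TCF/LEF factors and maintains the pericentral programme, while periportal cells carry out urea synthesis and gluconeogenesis. Glutamine synthesis is confined to a thin pericentral rim, and the rat, unlike humans, makes its own vitamin C in the liver.

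Promoter sequences are shown first because Wnt signals reach their target genes through the TCF/LEF factors, whose core letters can be searched for. Each line holds the 250 bases before the annotated start, 5′ to 3′ on the strand of the gene, from RefSeq on the assembly GRCr8. Capitals mark the TCF/LEF core CTTTGA or CTTTGT, or its reverse complement, searched on both strands. Of 33469 RefSeq promoter windows of this length, 13.9% held CTTTGA, 16.3% held CTTTGT and 27.5% held at least 1 of them. The longer HNF4 element CAAAGTCCA, which shares the letters CAAAG with the reversed cores, was searched as well and stood in 0.338% of windows. Entries were found for 7 of the 9 genes, with a pair of windows each for Glul and Slc1a2. Gulo and Tbx3 are named only. Avpr1a (chr7:59999493-59999742, + strand), Oat (chr1:196797755-196798004, - strand) and Rgn (chrX:4187958-4188207, - strand, inside the annotated gene) are shown because they fell with dose. Glul (chr13:68519250-68519499, + strand) and Axin2 (chr10:94398535-94398784, + strand, inside the annotated gene) are shown as the classical Wnt-linked members. Cyp2e1 (chr1:205269717-205269966, + strand) is shown as an abundant member that did not pass the test at any dose.
Avpr1a: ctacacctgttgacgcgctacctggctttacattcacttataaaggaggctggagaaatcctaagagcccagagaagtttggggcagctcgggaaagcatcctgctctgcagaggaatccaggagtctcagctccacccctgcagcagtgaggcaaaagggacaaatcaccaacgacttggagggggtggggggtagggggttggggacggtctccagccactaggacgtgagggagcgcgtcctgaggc
Oat: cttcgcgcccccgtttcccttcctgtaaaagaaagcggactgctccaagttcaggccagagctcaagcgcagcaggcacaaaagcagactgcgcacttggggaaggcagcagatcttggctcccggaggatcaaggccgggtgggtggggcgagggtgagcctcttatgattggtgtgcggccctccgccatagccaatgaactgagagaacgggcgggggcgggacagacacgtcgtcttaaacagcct
Rgn: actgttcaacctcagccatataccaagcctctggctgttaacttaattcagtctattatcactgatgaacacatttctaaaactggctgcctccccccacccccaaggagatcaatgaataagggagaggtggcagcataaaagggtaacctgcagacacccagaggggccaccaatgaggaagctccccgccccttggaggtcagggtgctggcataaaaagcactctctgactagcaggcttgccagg
Glul: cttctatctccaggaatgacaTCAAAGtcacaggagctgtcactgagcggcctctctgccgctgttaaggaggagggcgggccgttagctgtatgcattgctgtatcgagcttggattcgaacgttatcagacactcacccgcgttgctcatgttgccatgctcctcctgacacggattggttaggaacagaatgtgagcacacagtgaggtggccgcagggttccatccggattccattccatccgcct
Axin2: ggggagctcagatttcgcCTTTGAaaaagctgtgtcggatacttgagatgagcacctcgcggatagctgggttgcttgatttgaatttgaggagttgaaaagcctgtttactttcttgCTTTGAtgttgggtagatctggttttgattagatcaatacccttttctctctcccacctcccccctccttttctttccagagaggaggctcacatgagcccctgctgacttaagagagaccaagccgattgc
Cyp2e1: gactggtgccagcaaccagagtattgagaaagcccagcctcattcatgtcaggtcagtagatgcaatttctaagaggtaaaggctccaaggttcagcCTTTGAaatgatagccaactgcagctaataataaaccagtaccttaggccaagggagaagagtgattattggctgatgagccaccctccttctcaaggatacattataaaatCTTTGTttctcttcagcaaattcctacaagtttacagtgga

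The windows of Avpr1a, Oat and Rgn held neither core. In the printed window of Glul, TCAAAG lay 229 to 224 bases before the start. Axin2 held CTTTGA at 232 to 227 and at 132 to 127 bases before its start. Cyp2e1 held CTTTGA at 153 to 148 and CTTTGT at 41 to 36. Of the windows that are not printed, the second of Glul (chr13:68575816-68576065) and the first of Slc1a2 (chr3:109459859-109460108) held none. The other Slc1a2 window (chr3:109507697-109507946) held TCAAAG at 188 to 183 and CTTTGA at 62 to 57. The HNF4 element was in none of these windows. A match is a run of letters and not a binding site, and its absence covers this window alone.

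At the highest dose, Avpr1a, Oat, Gulo and Rgn fell, and so did 1 of the 3 probe sets of Glul. No member rose at any dose. Of the 16 probe sets, 6 were lower at 1054.2 mg/kg with an adjusted p under 0.05 (limma, Benjamini-Hochberg over all 31042 probe sets), where 1.44% of all probe sets were lower and 3.30% changed in either direction. Without treated replicate 3 the count was 3, where 1.3% of all probe sets changed. Counting each gene by its brightest probe set, 4 of 9 genes fell and the median change was -0.42 log2, against -0.01 over all probe sets. In a separate fit with only the brightest probe set of each gene, 4 of the 9 also passed, where 6.47% of all did. Slc1a2, Cyp2e1, Axin2 and Tbx3 did not pass at this dose.

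The largest fall among the 9 genes was that of Avpr1a, which encodes the vasopressin V1a receptor, a calcium-signalling receptor on hepatocytes (chromosome 7, 59999743 to 60003667). Its log2 values were 11.20, 11.23, 11.55, 11.38 and 11.36 in the control rats, 11.17, 10.63 and 11.25 at 66 mg/kg, and 10.60, 10.15 and 11.06 at 132 mg/kg. They were 10.63, 10.36 and 10.34 at 263.6 mg/kg, 9.53, 10.34 and 10.35 at 527.1 mg/kg, and 9.94, 10.03 and 9.60 at 1054.2 mg/kg. From 132 mg/kg upward no treated rat reached the lowest control, whereas at 66 mg/kg 1 rat lay within the control range. The group means went down at every step of dose, although the ranges of neighbouring dose groups overlapped throughout. At 1054.2 mg/kg the mean was 9.86 ± 0.22 (SD, n = 3), against 11.34 ± 0.14 in controls (SD, n = 5), a change of -1.49 ± 0.20 log2 (SE, limma adjusted p = 0.000150), or 2.80-fold lower. The change was -1.27 at 527.1 mg/kg (limma adjusted p = 0.00187) and -0.90 at 263.6 mg/kg (limma adjusted p = 0.0475). Single rats left out, here and for the genes that follow, are those of the groups compared, or all 20 for a slope. Leaving out any 1 rat kept the calls at the 2 highest doses. The call at 263.6 mg/kg was lost without any 1 of its 8 rats (limma adjusted p 0.0617 to 0.165). The slope over the 6 dose ranks was -0.30 ± 0.03 log2 per step (SE, limma adjusted p = 2.19e-06).

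Among the genes of nitrogen handling, Oat fell and Glul did so in part. Oat encodes ornithine aminotransferase, a mitochondrial enzyme that passes the amino group of ornithine toward glutamate (chromosome 1, 196777973 to 196797754). Its log2 values were 11.47, 10.63, 10.80, 10.89 and 10.65 in the control rats, 10.67, 10.91 and 9.93 at 66 mg/kg, and 10.30, 9.41 and 10.69 at 132 mg/kg. They were 9.17, 9.86 and 9.65 at 263.6 mg/kg, 9.22, 10.21 and 9.63 at 527.1 mg/kg, and 9.50, 9.63 and 9.17 at 1054.2 mg/kg. All rats at the 3 highest doses lay below all controls, and both lower doses overlapped with the controls. The mean at 1054.2 mg/kg was 9.43 ± 0.24 (SD, n = 3), against 10.89 ± 0.34 in controls (SD, n = 5), a change of -1.46 ± 0.28 log2 (SE, limma adjusted p = 0.00458). This call held without any 1 rat. The changes at 263.6 and 527.1 mg/kg were -1.33 and -1.20 (limma adjusted p = 0.0376 and 0.0288), so the 3 highest doses gave similar values. Neither of those calls was robust to single rats. At 527.1 mg/kg it was lost without control replicate 1, 3 or 4 or treated replicate 1 or 3 (limma adjusted p up to 0.176). At 263.6 mg/kg it was lost without any 1 rat but control replicate 5 (limma adjusted p up to 0.168). The slope was -0.30 ± 0.05 log2 per dose step (SE, limma adjusted p = 0.000321).

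**Figure D1:**
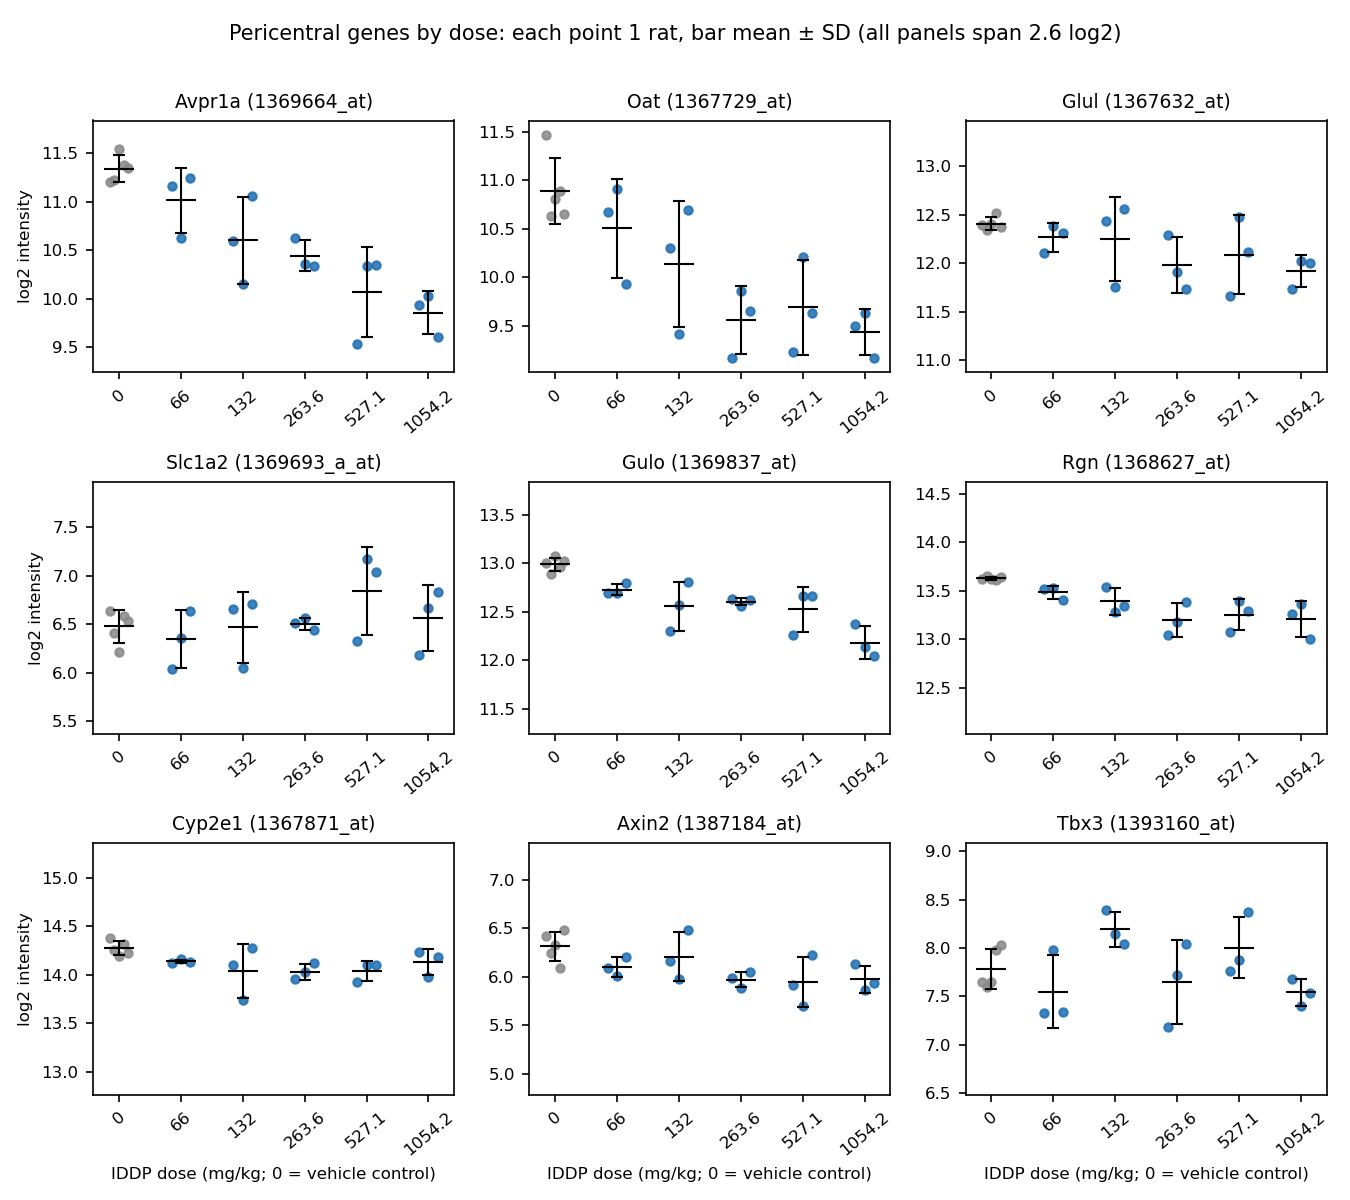
Log2 intensity (y axis) of the brightest probe set of each of the 9 genes in every rat, by dose in mg/kg (x axis); points are rats, and bars are group means ± SD (n = 5 controls at dose 0, n = 3 per dose). Every panel spans the same log2 height. Avpr1a went down step by step with the group mean at 9.86 at the highest dose and 11.34 in controls, while Slc1a2 and Tbx3 showed no such order.

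Glul encodes glutamine synthetase, which fixes ammonia onto glutamate in the last hepatocytes before the central vein (chromosome 13, 68519500 to 68585554). Its 3 probe sets were all lower at 1054.2 mg/kg, with no rat reaching the lowest control, but only 1 passed the test. That one, 1386870_at, read 11.88, 11.39, 11.51, 11.73 and 11.61 in the control rats, 11.24, 11.35 and 11.57 at 66 mg/kg, and 11.41, 10.81 and 11.76 at 132 mg/kg. It read 11.51, 11.02 and 11.05 at 263.6 mg/kg, 11.03, 11.43 and 11.41 at 527.1 mg/kg, and 10.80, 10.89 and 11.10 at 1054.2 mg/kg. Only at the highest dose did its values separate from the controls. The change there was -0.70 ± 0.17 log2 (SE, limma adjusted p = 0.0286), or 1.62-fold lower, and the slope was -0.12 ± 0.03 per dose step (SE, limma adjusted p = 0.0182). The call at 1054.2 mg/kg was lost without control replicate 1 or 4 or without any 1 treated rat (limma adjusted p up to 0.110).

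The brightest Glul probe set, 1367632_at, read 12.40, 12.34, 12.40, 12.52 and 12.37 in the control rats, 12.10, 12.38 and 12.32 at 66 mg/kg, and 12.43, 11.76 and 12.56 at 132 mg/kg. It read 12.30, 11.91 and 11.74 at 263.6 mg/kg, 11.67, 12.48 and 12.12 at 527.1 mg/kg, and 11.73, 12.02 and 12.01 at 1054.2 mg/kg. The treated groups spread far wider than the controls at the middle doses. Its change at 1054.2 mg/kg was -0.49 ± 0.17 log2 (SE, 95% confidence interval -0.85 to -0.12, limma adjusted p = 0.155). The third and dimmest probe set, 1367633_at, read 8.52, 8.78 and 8.83 at 1054.2 mg/kg, against 9.84, 9.16, 9.09, 9.21 and 9.26 in the control rats, and gave -0.60 ± 0.35 log2 (SE, limma adjusted p = 0.454). The brightest probe sets of Oat and Glul were set against each other within arrays. The change of Oat was larger than that of Glul by -0.97 log2 at 1054.2 mg/kg (exact permutation test over 56 splits of 8 arrays, two-sided p = 0.0179). This is the smallest p the design allows, and it is also the Benjamini-Hochberg value over the 2 such tests made. The other test, of Gulo and Rgn, is given below. Both pairs came from members chosen with earlier results of these data known, and other pairs were not tested. Adjustment over 2 tests does not cover that choice. Whether probe sets of unlike brightness report changes on the same scale was also not tested.

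Slc1a2 encodes GLT-1, a glutamate transporter that brings glutamate into pericentral cells (chromosome 3, 109460109 to 109590445). Its brighter probe set averaged 6.56 ± 0.34 log2 at 1054.2 mg/kg (SD, n = 3) and 6.48 ± 0.17 in controls (SD, n = 5), a change of 0.08 with a 95% confidence interval of -0.32 to 0.48. The second probe set lay at the 7.4th percentile of brightness and could show little. No dose moved either past the threshold. In the brighter, 2 of the 3 rats lay above all controls at 132 (6.65 and 6.71), 527.1 (7.17 and 7.04) and 1054.2 mg/kg (6.67 and 6.83). So did 1 rat at 66 mg/kg (6.638, against a highest control of 6.636). Below all controls lay 1 rat at each of 66 (6.04), 132 (6.04) and 1054.2 mg/kg (6.18).

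Both vitamin C genes fell, and on the probe sets read Gulo had the larger log2 change at 1054.2 mg/kg. At 263.6 mg/kg it did not (-0.39 on its brighter probe set, against -0.43 for Rgn). The 2 probe sets of Gulo also gave changes of different size. Gulo encodes L-gulonolactone oxidase, the enzyme of the last step of vitamin C synthesis (chromosome 15, 44381226 to 44403314). Its brighter probe set, 1369837_at, read 13.00, 12.90, 13.07, 12.96 and 13.03 in the control rats, 12.69, 12.70 and 12.80 at 66 mg/kg, and 12.30, 12.57 and 12.81 at 132 mg/kg. It read 12.63, 12.56 and 12.62 at 263.6 mg/kg, 12.26, 12.66 and 12.66 at 527.1 mg/kg, and 12.37, 12.14 and 12.04 at 1054.2 mg/kg. Every treated rat at every dose lay below every control. The mean was 12.18 ± 0.17 at 1054.2 mg/kg (SD, n = 3), against 12.99 ± 0.07 in controls (SD, n = 5), a change of -0.81 ± 0.11 log2 (SE, limma adjusted p = 0.000237), or 1.75-fold lower. That call held without any 1 rat. The change of -0.46 at 527.1 mg/kg (limma adjusted p = 0.0385) was lost without any 1 of its rats but control replicate 2 (limma adjusted p up to 0.219). The slope was -0.14 ± 0.02 log2 per dose step (SE, limma adjusted p = 0.000198).

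The second Gulo probe set, 1387725_at, was lower by more at the middle doses. It read 11.82, 11.27, 11.80, 11.50 and 11.61 in the control rats, 11.08, 11.02 and 11.35 at 66 mg/kg, and 10.62, 10.04 and 11.33 at 132 mg/kg. It read 10.94, 10.32 and 10.95 at 263.6 mg/kg, 10.25, 11.07 and 11.07 at 527.1 mg/kg, and 10.72, 10.84 and 10.38 at 1054.2 mg/kg. The rats of the 3 highest doses lay below all controls, with 1 rat at each of the lower doses inside the control range. Its changes were -0.45, -0.94, -0.86, -0.81 and -0.95 log2 from the lowest to the highest dose, and only the last passed (SE 0.24, limma adjusted p = 0.0295). Without 132 mg/kg replicate 2 the change at that dose was -0.63. The call at 1054.2 mg/kg was lost without control replicate 1, 3 or 4 or without any 1 treated rat (limma adjusted p up to 0.171).

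**Figure D2:**
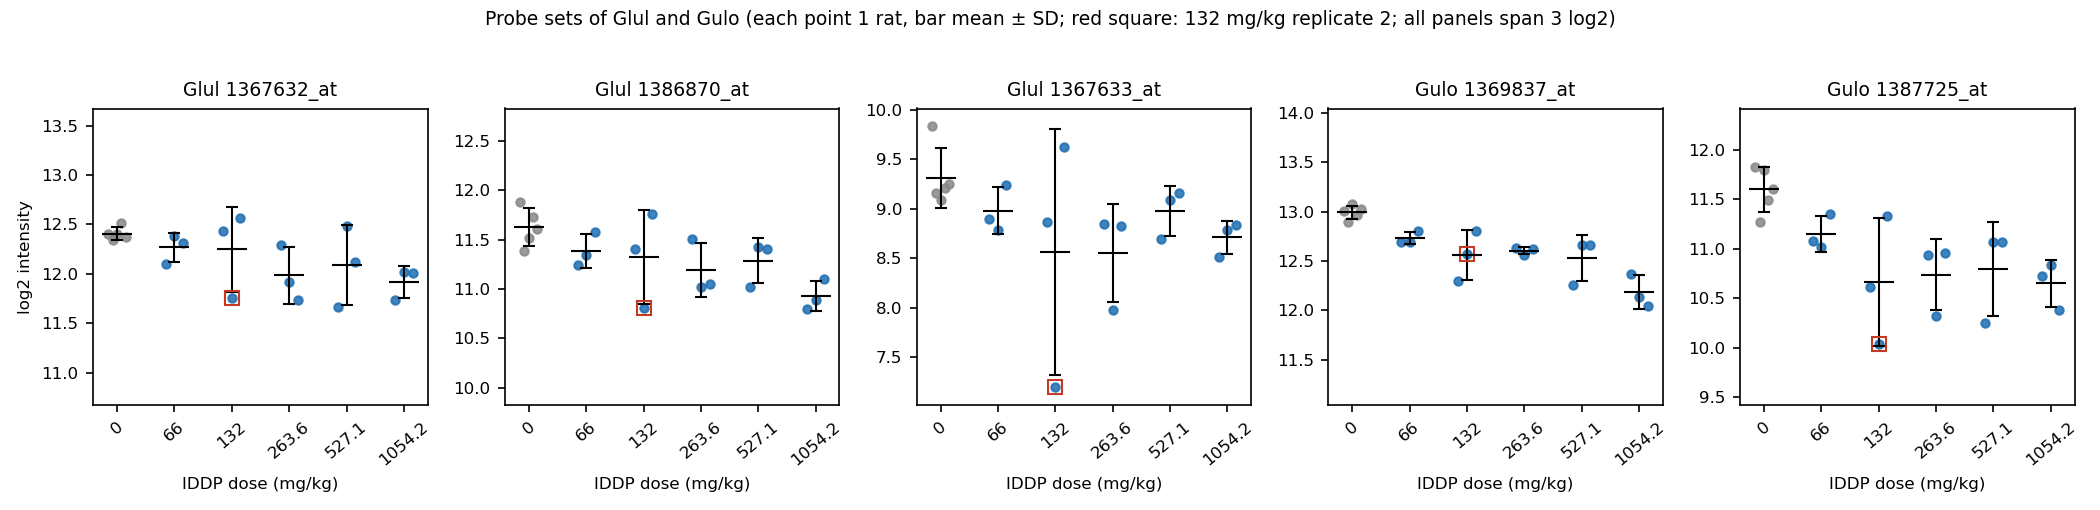
Log2 intensity (y axis) by dose in mg/kg (x axis) for the 3 probe sets of Glul and the 2 of Gulo, with points for rats, bars for group means ± SD and a red square around 132 mg/kg replicate 2. Both genes lay below the controls on every probe set at 1054.2 mg/kg, and at 132 mg/kg replicate 2 lay lowest on all but 1 of the probe sets.

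Rgn encodes regucalcin, also called SMP30, the gluconolactonase that acts before Gulo in the same pathway (chromosome X, 4172537 to 4190112). It read 13.62, 13.65, 13.62, 13.61 and 13.65 log2 in the control rats, 13.52, 13.53 and 13.41 at 66 mg/kg, and 13.54, 13.28 and 13.34 at 132 mg/kg. It read 13.04, 13.17 and 13.39 at 263.6 mg/kg, 13.08, 13.39 and 13.30 at 527.1 mg/kg, and 13.26, 13.36 and 13.00 at 1054.2 mg/kg. The controls lay close together and every treated rat was below them. The mean was 13.21 ± 0.18 at 1054.2 mg/kg (SD, n = 3), against 13.63 ± 0.02 in controls (SD, n = 5). The change of -0.42 ± 0.10 log2 (SE, limma adjusted p = 0.0226) was lost without treated replicate 3 (limma adjusted p = 0.183). The 3 highest doses differed little, at -0.43, -0.37 and -0.42, and the slope was -0.09 ± 0.02 per dose step (SE, limma adjusted p = 0.00248). Within arrays, the change of Gulo was larger than that of Rgn by -0.39 log2 at 1054.2 mg/kg (exact permutation test, two-sided p = 0.0179, the smallest possible).

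The vitamin C list covers synthesis and transport. Of its 8 measured genes 2 fell, Gulo and Rgn, and 1 rose. The riser was Ugdh, which makes the UDP-glucuronate that lies upstream of the pathway, at 12.28 ± 0.13 log2 at 1054.2 mg/kg (SD, n = 3) and 11.78 ± 0.19 in controls (SD, n = 5). Its change of 0.50 ± 0.13 (SE, limma adjusted p = 0.0411) was lost without any 1 rat but control replicate 1 (limma adjusted p up to 0.208). Over all 8 genes, Gulo and Rgn included, the median change was -0.03 log2. In the list for glutamine, glutamate and ornithine handling, Oat was the 1 gene of 18 that passed, and the median was -0.12. Over all probe sets 3.30% changed at 1054.2 mg/kg, and 6.47% in the fit with only the brightest probe set of each gene. A count of 1 in 18 lies near the latter share.

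Cyp2e1 encodes a cytochrome P450 that oxidises ethanol, acetone and small solvents (chromosome 1, 205269967 to 205280365). It read 14.38, 14.26, 14.20, 14.31 and 14.22 log2 in the control rats, 14.13, 14.16 and 14.13 at 66 mg/kg, and 14.10, 13.74 and 14.28 at 132 mg/kg. It read 13.95, 14.03 and 14.12 at 263.6 mg/kg, 13.92, 14.10 and 14.10 at 527.1 mg/kg, and 14.23, 13.98 and 14.19 at 1054.2 mg/kg. The rats at 66, 263.6 and 527.1 mg/kg lay below all controls, yet those at the highest dose overlapped with them. No change passed the test. The change at 1054.2 mg/kg was -0.14 log2 with a 95% confidence interval of -0.36 to 0.07 (limma adjusted p = 0.577), and the probe set stood at the 99.8th percentile of brightness.

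Neither Axin2 nor Tbx3 passed the test at a single dose. Axin2 encodes a scaffold of the beta-catenin destruction complex and is itself switched on by Wnt signals (chromosome 10, 94393379 to 94426579). It read 6.42, 6.24, 6.33, 6.09 and 6.48 log2 in the control rats, 6.09, 6.01 and 6.21 at 66 mg/kg, and 6.17, 5.98 and 6.48 at 132 mg/kg. It read 5.98, 5.88 and 6.04 at 263.6 mg/kg, 5.91, 5.70 and 6.22 at 527.1 mg/kg, and 6.13, 5.86 and 5.93 at 1054.2 mg/kg. Only at 263.6 mg/kg did the rats clear the control range. The change at 1054.2 mg/kg was -0.34 log2 (95% confidence interval -0.60 to -0.08, limma adjusted p = 0.166). The slope passed at -0.07 ± 0.02 per dose step (SE, limma adjusted p = 0.0449) but lost the call without any 1 of 12 of the 20 rats (limma adjusted p up to 0.101). These were control replicates 1, 2, 3 and 5, replicate 3 at 66, replicate 1 at 132, replicates 2 and 3 at 263.6, replicates 1 and 2 at 527.1, and replicates 2 and 3 at 1054.2 mg/kg. The probe set was dim, at the 45th percentile of brightness.

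Tbx3 encodes a T-box repressor of transcription (chromosome 12, 42540378 to 42555490). Its brightest probe set of 4 averaged 7.54 ± 0.14 log2 at 1054.2 mg/kg (SD, n = 3) and 7.78 ± 0.21 in controls (SD, n = 5). The other probe sets gave changes of 0.07, 0.15 and 0.15 there, so the probe sets differed in sign. By dose the brightest changed by -0.23, 0.41, -0.13, 0.22 and -0.24, with no order, and none of the 4 passed at any dose. At 132 mg/kg its 3 rats lay above all controls, as was the case for 4.32% of all probe sets. At 263.6 mg/kg another of the 4, 1390627_a_at, did so, where 4.82% of all probe sets did.

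The number of members past the threshold grew with dose. At 66 and at 132 mg/kg none of the 16 probe sets passed in limma. At an unadjusted p under 0.05, 1 was lower at 66 mg/kg. At 132 mg/kg 7 were lower and 1, the brightest of Tbx3, was higher. Over all probe sets 3.24% and 14.9% met that looser rule at these doses, and 0.00644% and 0.0677% passed after adjustment. At 263.6 mg/kg 2 passed, Oat and Avpr1a, where 0.428% of all probe sets changed and 0.155% were lower. At 527.1 mg/kg 3 passed, Avpr1a, Oat and Gulo, where 1.68% changed and 0.483% were lower. Each of these was lower. The slope over dose ranks passed for 7 probe sets of 6 genes, the 5 that fell at the highest dose and Axin2, where 5.05% of all probe sets changed and 2.08% were lower. None of the 16 differed between 1054.2 and 527.1 mg/kg in limma after adjustment, where 0.0129% of all probe sets did. At an unadjusted p under 0.05, 2 did, the brighter probe set of Gulo (-0.34 log2) and the brightest of Tbx3, as did 6.08% of all probe sets.

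Separation between single rats, a looser rule with no adjustment, was met at lower doses than the calls were. The 2 rules are unlike, so this does not date the start of a change by dose. All treated rats lay below all controls for 3 probe sets at 66 mg/kg (Cyp2e1, Gulo and Rgn), where 1.91% of all probe sets did so. At 132 mg/kg the 3 were Avpr1a, Gulo and Rgn, where 3.85% did. The number was 9 at 263.6 mg/kg (4.18% of all), 6 at 527.1 mg/kg (4.85%) and 8 at 1054.2 mg/kg (5.81%). Over the 9 genes by brightest probe set the median changes were -0.21, -0.24, -0.39, -0.37 and -0.42 log2 from the lowest to the highest dose. Over all probe sets no median was farther from 0 than -0.02. 

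The changes at 132 mg/kg depended on replicate 2, the rat with the highest 3' minus 5' difference. Without it the median over the 9 genes was -0.086 log2 in place of -0.24, and 5 of the 9 were lower in place of 8. Avpr1a then changed by -0.52 and Oat by -0.39, in place of -0.74 and -0.75. The brighter probe set of Gulo kept -0.44, against -0.43 with all rats. Rgn changed by -0.18 and Cyp2e1 by -0.086. The 3 probe sets of Glul, from the brightest to the dimmest, changed by 0.089, -0.042 and -0.064, in place of -0.16, -0.30 and -0.75. Slc1a2 changed by 0.20, Axin2 by 0.010 and Tbx3 by 0.44 (brightest probe sets). Neither with nor without this rat did a member pass at 132 mg/kg in limma. Without replicate 3 of that dose 4 passed, where 4.77% of all probe sets did.

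At 263.6 mg/kg, leaving out replicate 2 changed less. The median over the 9 genes was -0.37 in place of -0.39, and 9 of 9 were lower in place of 8. Oat changed by -1.48 and Avpr1a by -0.86, and both calls were lost (limma adjusted p = 0.0744 and 0.165). The other brightest probe sets changed by -0.42 (Rgn), -0.39 (Glul), -0.37 (Gulo), -0.30 (Axin2), -0.24 (Cyp2e1), -0.17 (Tbx3) and -0.00088 (Slc1a2). With the 3' minus 5' difference as a covariate, 1 probe set, that of Oat, passed at 263.6 mg/kg in place of 2, where 0.493% of all did.

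**Figure D3:**
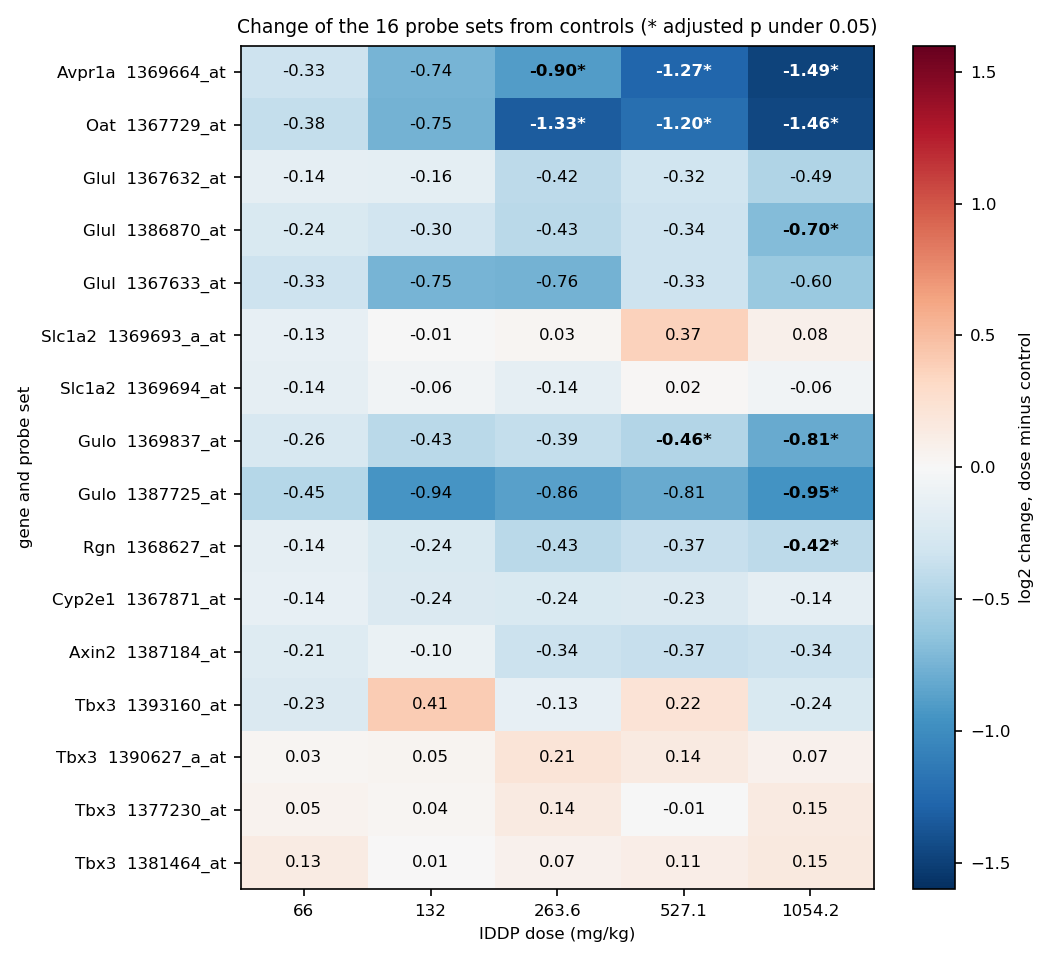
Log2 change from the control mean, dose minus control, written and coloured in each cell for the 16 probe sets (rows) at each dose in mg/kg (columns); an asterisk marks an adjusted p under 0.05. Avpr1a and Oat reached -1.49 and -1.46 at 1054.2 mg/kg, and no asterisk stands on a positive change.

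The members differed in how alike they were across rats. Over the 20 arrays, Pearson's r between brightest probe sets was 0.89 for Gulo and Avpr1a, 0.87 for Oat and Rgn, 0.80 for Oat and Avpr1a and 0.79 for Rgn and Avpr1a. Tbx3 and Slc1a2 stood apart. The r of Tbx3 to the other genes lay between -0.07 and 0.22, and that of Slc1a2 between -0.12 and 0.40, the highest with Glul. The arrays share the dose groups and the array normalization, so these values are descriptions. Among all named genes, Oat was most like Cd164, a sialomucin (r 0.94), and Mbl2, which encodes mannose-binding lectin (0.94). Rgn was most like Agtr1a, an angiotensin II receptor (0.95), and again Mbl2 (0.95). Gulo was nearest to Itih1, a hyaluronan-binding plasma protein (0.89), and to Avpr1a. Avpr1a itself was nearest to Tp53inp2, a regulator of autophagy (0.91), then to Tpm4, a tropomyosin (0.90), and to the clock factor Bmal1 (0.90). The genes nearest to Axin2, which was dim, reached only 0.79.

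Other pericentral genes did not move as a block. Of 19 measured, 2 fell, 1 rose and 16 did not pass at 1054.2 mg/kg, with a median change of 0.05 log2. In the fit with only the brightest probe set of each gene, 6.47% of all changed at that dose. Aldh1a1, a retinal dehydrogenase, rose to 13.77 ± 0.14 log2 at 1054.2 mg/kg (SD, n = 3), against 12.41 ± 0.07 in controls (SD, n = 5), a change of 1.36 ± 0.10 (SE, limma adjusted p = 1.27e-07). Cyp1a2, a cytochrome P450 that oxidises caffeine, was 12.70 ± 0.19 at 1054.2 mg/kg (SD, n = 3) and 13.36 ± 0.10 in controls (SD, n = 5), a change of -0.66 ± 0.11 (SE, limma adjusted p = 0.00110). Both calls held without any 1 rat. Lect2, a secreted protein, changed by -0.34 ± 0.08 (SE, limma adjusted p = 0.0269), a call lost without any 1 rat but control replicate 1. Its other probe set did not pass (-0.46, limma adjusted p = 0.140). Of 19 periportal genes 1 rose and none fell in limma (median -0.10), a count near that share of 6.47%. The riser was Sfxn1, a mitochondrial serine transporter, at 0.38 ± 0.09 (SE, limma adjusted p = 0.0205), lost without control replicate 1 or treated replicate 2 or 3. The second Sfxn1 probe set did not pass (0.40, limma adjusted p = 0.0896).

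The genes that carry Wnt signals were mostly not past the threshold. Of 24 ligands, receptors and signal carriers, 2 fell and 1 rose at 1054.2 mg/kg, with a median of -0.06 log2. The share of all genes that changed there was 6.47% in the fit with 1 probe set per gene. The co-receptor Lrp5 was 6.90 ± 0.10 log2 at 1054.2 mg/kg (SD, n = 3) and 7.67 ± 0.16 in controls (SD, n = 5), a change of -0.77 ± 0.14 (SE, limma adjusted p = 0.00365) that held without any 1 rat. Wnt2, a ligand made by liver endothelial cells, changed by -0.35 ± 0.10 (SE, limma adjusted p = 0.0496), and Tcf7l2, a TCF factor, by 0.52 ± 0.14 (SE, limma adjusted p = 0.0425). Both of these calls were lost without control replicate 1, 2, 3 or 4 or treated replicate 2 or 3 (limma adjusted p up to 0.277). Over all their probe sets, 2 of 2 passed for Lrp5, 1 of 2 for Wnt2 and 2 of 5 for Tcf7l2. Of 7 other Wnt target genes Myc alone passed at 1054.2 mg/kg, and it rose by 1.94 ± 0.24 log2 (SE, limma adjusted p = 7.64e-05). In this list 1 gene also rose past the threshold at 66 mg/kg. None passed at 132, 263.6 or 527.1 mg/kg, and no slope on dose rank passed, that of Myc included. Myc answers to many signals beside Wnt.

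**Figure D4:**
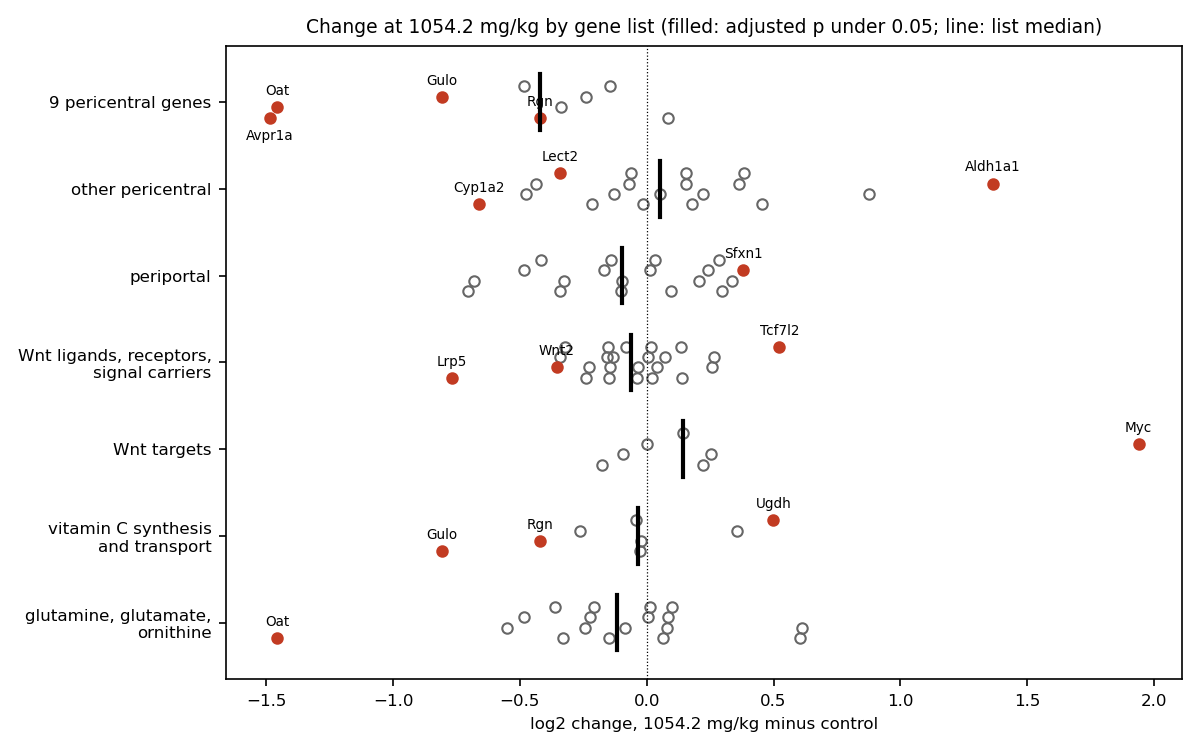
Log2 change at 1054.2 mg/kg from the control mean (x axis) for the genes of each list (rows), each by its brightest probe set; filled points passed the adjusted threshold, open points did not, and vertical lines mark the list medians. The 9 members had a median of -0.42 and the other pericentral genes a median of 0.05.

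Markers of Kupffer, stellate and endothelial cells were lower at 1054.2 mg/kg in part, and those of cholangiocytes were not. Over all probe sets 3.30% changed there and 1.44% were lower, and 6.47% changed in the fit with 1 probe set per gene. The mean level of 9 Kupffer cell markers lay between 9.35 and 9.46 log2 at 1054.2 mg/kg and between 9.73 and 10.23 in controls, and 6 of the 9 fell. For 10 stellate cell and fibroblast markers the ranges were 7.65 to 7.89 at 1054.2 mg/kg and 8.03 to 8.33 in controls, and 5 fell. For 8 endothelial markers they were 8.96 to 9.24 at 1054.2 mg/kg and 9.20 to 9.49 in controls, and 2 fell. For 6 cholangiocyte markers they were 6.39 to 6.97 at 1054.2 mg/kg and 6.18 to 6.56 in controls, and Epcam alone rose, by 0.65 log2. The 9 hepatocyte markers lay between 14.30 and 14.34 at 1054.2 mg/kg and between 14.47 and 14.53 in controls, and 1 of them, Cyp2c11, fell by 0.83 log2. The part of cell composition in the falls of Avpr1a, Oat, Gulo, Rgn and Glul was not tested.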

How the data were processed

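Liver RNA of 20 rats was measured on Affymetrix arrays, and the dose label of each sample gave its group. The authors deposited log2 probe set values. These came from RMA, per the submitters' processing notes, and its version is not given in the sources used here. Array medians lay between 6.32 and 6.41. The 57 control probe sets were left out, which left 31042. Of these, 20826 carried 1 symbol, 436 several and 9780 are unnamed here. The annotation's Entrez identifiers matched GRCr8 for 20758.

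A model with 1 mean per dose was fitted to all 20 arrays in limma 3.58.1 under R 4.3.3, with two-sided tests and Benjamini-Hochberg adjustment over all probe sets, and a second fit gave the slope on the dose rank, from 0 to 5. Errors of a change are standard errors. Genes with several probe sets were read from the brightest unless stated. The fit was tested on simulated data. The members and gene lists were chosen with earlier results of these data known. The text names every member, from each other list up to 4 genes of largest change among those past the threshold at 1054.2 mg/kg, and the genes of highest Pearson's r to each member past the threshold. The number of arrays limits the precision. Differences between the changes of a pair of genes used exact permutation tests over 56 splits. Alternatives were dim probe sets left out, 1 probe set per gene, arrays centred or quantile normalised again, the 3' minus 5' difference as a covariate, the replicate number as a block, another variance model, only the groups compared, the dose in mg/kg, and single rats left out. The replicate block left out control replicates 4 and 5, which have no counterpart in the dosed groups. Leaving out both rats of high 3' minus 5' difference was added after seeing the data.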

Additional observations from a re-analysis of the deposited data

Results flagged for a closer look

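The dimmest Glul probe set (1367633_at) read 9.84 log2 in control replicate 1, while the other 4 controls lay between 9.09 and 9.26. The gap to the nearest control was 0.778 of the whole range, above Dixon's critical value of 0.710 for 5 samples. Of the 16 sets of control values examined, this was the 1 that exceeded it, and chance alone gives about 1 in 20.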

How the results depend on the processing

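The number of the 16 probe sets past the threshold depended on some settings, and the cause was not tested. With 1 probe set per gene, only the brightest of each of the 9 genes was tested. With dim probe sets left out, member probe sets under the median brightness were not tested. Percentages give the share of all probe sets tested that passed in the same setting. At 263.6 mg/kg it was 2, Oat and Avpr1a (0.428% of all). It was 0 with arrays centred on their medians (0.242%) or with a replicate block (0.251%). It was 1, Oat, with the 3' minus 5' difference as a covariate (0.493%) or without both rats of high 3' minus 5' difference (0.18%). With the trended and robust variance model it was also 1 (0.416%), but this was Rgn, and Oat and Avpr1a were both lost. It was 3 with dim probe sets left out (1.09% of all), with 1 probe set per gene (1.01%) or with only the groups compared (0.532%). At 527.1 mg/kg it was 3 (1.68% of all), against 5 with only the groups compared (2.66%) and 1 with the replicate block (0.912%). The other settings gave 3 or 4 (1.52% to 3.54%). With the trended and robust variance model the 3 were Rgn, Avpr1a and Gulo, so Oat was lost. At 1054.2 mg/kg it was 6 (3.3% of all), against 3 with the replicate block (Oat, Avpr1a and Gulo, 1.98% of all). With 1 probe set per gene it was 4 of the 9 tested, where 6.47% of all passed. The others gave 6 or 7 (2.93% to 7.39%). The slope passed for 7 (5.05% of all), against 4 with the replicate block (3.0%) and 4 with the dose in mg/kg (2.83%). It passed for 9 with the 3' minus 5' covariate (7.12%) and for 6 to 8 with the others (4.64% to 10.8%). The replicate block dropped control replicates 4 and 5, so its lower counts cannot be told apart from the loss of those controls. Whether the replicate numbers pair the rats was not settled. Same-numbered pairs had r between -0.35 and 0.47, 15 of 45 were over 0.1, and 9 of 18 arrays correlated best with their own number.

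With single rats of the compared groups left out, the count was 0 to 0 at 66, 0 to 4 at 132, 0 to 1 at 263.6, 1 to 3 at 527.1 and 3 to 6 at 1054.2 mg/kg, 0 to 0 between 1054.2 and 527.1 mg/kg, and 6 to 8 for the slope. With any of the 20 rats left out it reached 3 at 263.6 mg/kg, without 132 mg/kg replicate 2, and 4 at 527.1 mg/kg, without 132 mg/kg replicate 2 or 3 or 263.6 mg/kg replicate 1. The 4 at 132 mg/kg came without its replicate 3 (both Gulo probe sets, Avpr1a and 1 of Glul), where 1482 of all 31042 probe sets (4.77%) passed, in place of 21. The 3 at 1054.2 mg/kg came without its replicate 3, where 405 (1.3%) passed in place of 1024. The 1 at 527.1 mg/kg came without control replicate 1, 3 or 4 or treated replicate 1 or 3, where 212 to 368 passed in place of 520. At 263.6 mg/kg 38 to 193 passed in place of 133. With centred medians 75 passed there, and with only the groups compared 826 passed at 527.1 mg/kg. The difference between the changes of Oat and Glul stayed between -1.10 and -0.80, and that of Gulo and Rgn between -0.45 and -0.29. The change of Slc1a2 at 1054.2 mg/kg lay between -0.051 (without treated replicate 3, limma adjusted p = 0.958) and 0.27 (without treated replicate 1).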
